A study of Mus musculus with 2 samples.

Results

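The genes described here are 49 mouse genes of Wnt signalling, comprising secreted ligands, receptors, inhibitors, intracellular transducers and targets. They were taken by gene symbol from the annotation of an Affymetrix mouse expression array: every Wnt ligand and Frizzled receptor with its own number, and 21 further symbols such as Lrp6, Axin2 and Ctnnb1. A probe set, the group of short probes that gives 1 signal, was used only where the annotation names a single gene, which left 102 probe sets of 45037. The annotation named 18193 genes in all in this way. Tcf7, 1 of those 21 symbols, had no such probe set and was not analysed here. The comparison was between RNA of cerebral cortex from 1 Sox11(-/-) mouse embryo and from 1 Sox11(+/+) littermate, both at E17.5, late in embryonic development, with C57BL/6 and 129 ancestry. The parents were heterozygous for Sox11, genotypes came from PCR on tail clips, and the labels do not describe the null allele. With 1 array per genotype, each difference below is a difference between 2 libraries, has no replicate check and was not tested.

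Wnt proteins are secreted signals that bind Frizzled receptors together with the co-receptors Lrp5 and Lrp6. In the branch that runs through beta-catenin, binding stops the complex of Axin and Apc from marking beta-catenin for destruction, and beta-catenin then acts with Tcf and Lef factors on target genes. Other branches control cell polarity and movement. In the embryonic cortex, Wnt signals from the medial edge (the hem) pattern the tissue, and Wnt signalling also acts on progenitors, axons and the growth of brain vessels. Sox11 is a transcription factor of immature neurons.

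The libraries had several differences that belong to no Wnt gene. All 6 Sox11 probe sets were lower in the Sox11-null library, at 16.4% to 47.8% of the wild-type signal. Xist, the RNA of the inactive X chromosome, was at 155 in the Sox11-null and 17505 in the wild-type library with its brightest probe set, and the Y-linked gene Eif2s3y was at 1838 in the Sox11-null and 0.814 in the wild-type library, so genotype and sex cannot be told apart. The 3' probes of the beta-actin control, set over its 5' probes as a measure of RNA integrity, gave a ratio of 1.16 in the Sox11-null and 1.78 in the wild-type library. Cortical neuron genes had a similar summed signal in both (7142 in Sox11 null, 7735 in wild type over 7 genes), with Neurod6 at 2723 in Sox11 null and 3019 in wild type, while Slc17a7 lay below the array medians. By their brightest probe sets, 4 of the other 6 genes were lower in the Sox11-null library. Emx1 and Fezf2 were higher, and none of the 6 differed by 1.5-fold. Genes of tissues outside the brain were bright as well. The summed signal of 10 epidermal genes was 29202 in the Sox11-null and 51412 in the wild-type library, and that of 8 hair follicle and tooth genes was 3472 in Sox11 null and 6430 in wild type. Not every epidermal gene went with the sum. Krt5 (4737 in Sox11 null, 4461 in wild type) and Krt15 (3861 in Sox11 null, 3421 in wild type) were higher in the Sox11-null library, and the other 8 were lower. The sum was 12131 in Sox11 null and 20283 in wild type for 5 lens genes, and 35538 in Sox11 null and 61336 in wild type for 5 salivary gland genes. All 5 salivary gland genes were lower in the Sox11-null library. Dcpp3 (3674 in Sox11 null, 16907 in wild type) made up the largest part of the gap in their sum. For 7 muscle genes the sum was 86768 in Sox11 null and 89471 in wild type. In the hair follicle and tooth list, Edar (31.1 in Sox11 null, 37.7 in wild type) was below the 25th percentile of both arrays. Krt27 was below it in the Sox11-null library alone (36.2, against 310 in wild type). Each of these tissues uses Wnt signals of its own, so a Wnt gene's signal need not come from cortical cells, and fewer cells of a type cannot be told apart from less RNA per cell.

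Of the 49 Wnt genes, 37 were measured, meaning that the brightest probe set reached the array's median signal (177.4 in Sox11 null, 177.5 in wild type) on at least 1 array. Of these 37 genes, 33 lay within 1.5-fold between the libraries. By their brightest probe sets, Sp5 and Wnt7a were lower in the Sox11-null library by more than 2-fold, and Fzd8 and Lgr5 were higher by more than 1.5-fold. The second measured probe sets of Wnt7a and Fzd8 did not show these differences. Among all 12390 measured genes, 3.24% were 1.5-fold lower and 3.07% were 1.5-fold higher (6.3% either way). The share of Wnt genes was 5.41% in each direction, which is 2 genes each way. At 2-fold the shares of all measured genes were 0.985% lower and 0.573% higher, against 2 lower Wnt genes and none higher. The median log2 difference (Sox11 null minus wild type) of the 37 genes was 0.04, against 0 for all measured genes, to which the arrays had been centred, and 17 genes lay below 0 and 20 above.

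**Figure D1:**
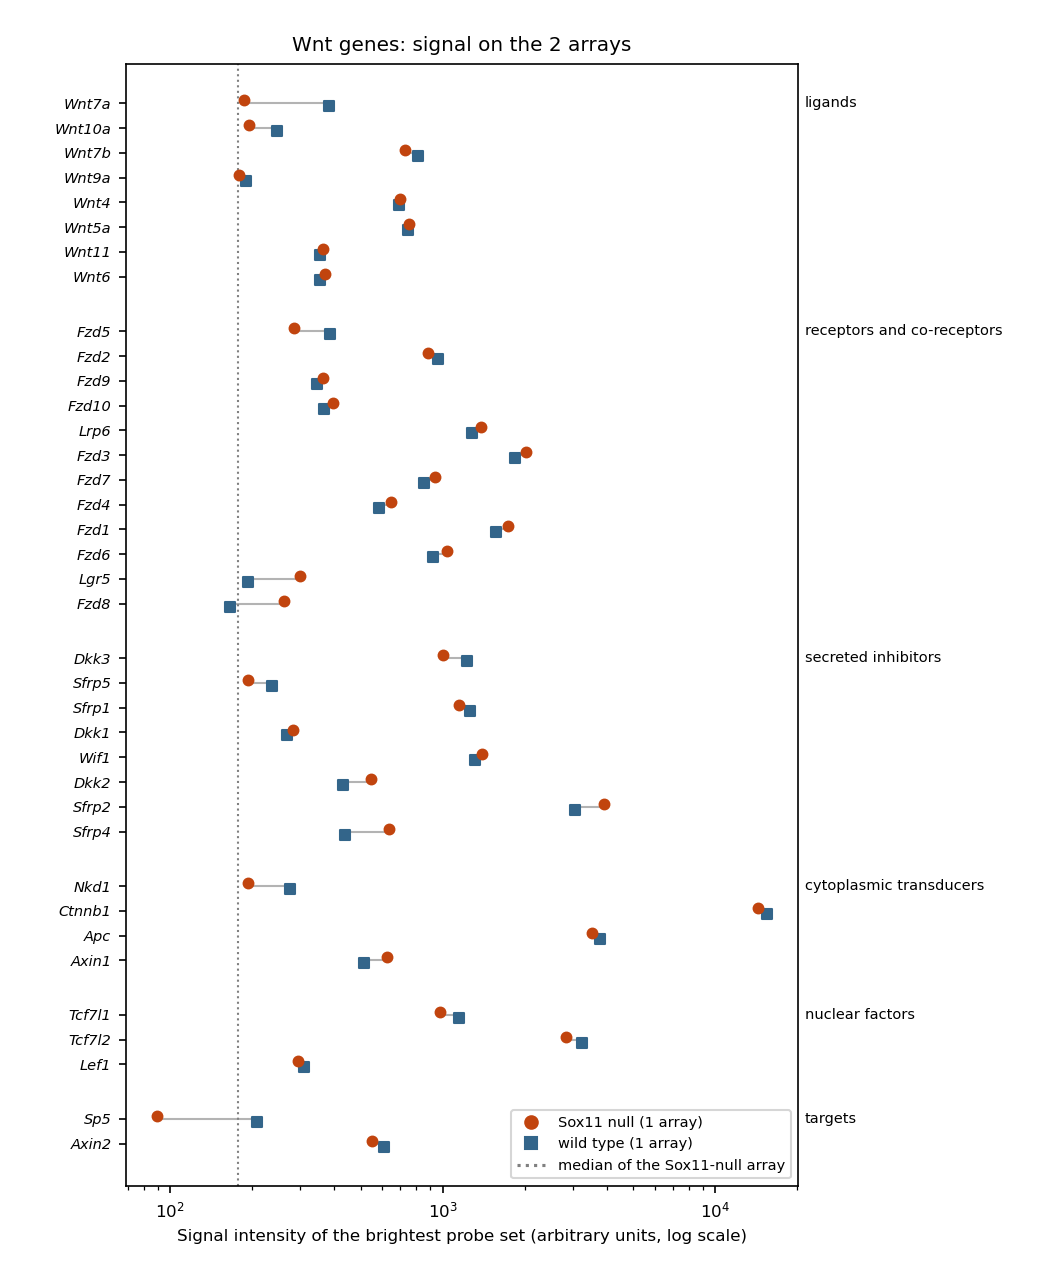
Signal intensity of the brightest probe set of each of the 37 measured Wnt genes (arbitrary units, log scale), with circles for the Sox11-null array, squares for the wild-type array and a dotted line at the median of the Sox11-null array. Most pairs nearly touch, and the widest gaps are those of Sp5 (89.1 in Sox11 null, 207 in wild type), Wnt7a (187 in Sox11 null, 382 in wild type), Fzd8 (261 in Sox11 null, 166 in wild type) and Lgr5 (300.5 in Sox11 null, 194 in wild type).

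All 4 of these genes were dim. Sp5, Wnt7a, Fzd8 and Lgr5 were in the dimmest of 3 equal groups of measured genes by mean signal, where the central 95% of log2 differences over 4130 genes ran from -0.94 to 0.82. In the middle group that range was -0.49 to 0.57 and in the brightest group -0.46 to 0.45. Of the 37 Wnt genes, 2 lay outside the range of their own group, Sp5 and Wnt7a. The range holds 95% of all genes by construction, so a share of all measured genes lies outside it too. Sp5 reached the median signal on the wild-type array alone, and Fzd8 on the Sox11-null array alone, so both had to differ between the arrays to some degree in order to be counted. That held for 743 of all 12390 measured genes (6.00%), but for 320 of the 781 beyond 1.5-fold (41.0%).

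**Figure D2:**
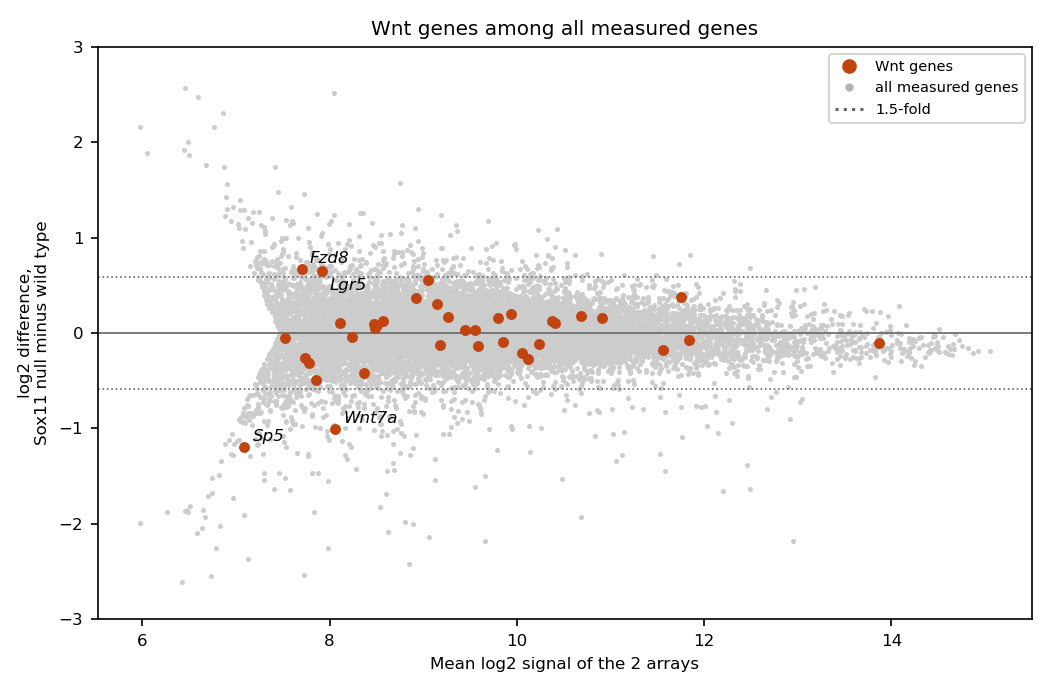
Log2 difference (Sox11 null minus wild type) against the mean log2 signal of the 2 arrays for all 12390 measured genes (grey) and the 37 measured Wnt genes (orange), with dotted lines at 1.5-fold. The 4 named Wnt genes lie at the dim end, where the grey cloud is widest, and 6 genes beyond 3 on the log2 scale are outside the plotted range.

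Sp5 had the most negative difference of the Wnt genes. Sp5 encodes a zinc finger transcription factor that is a direct target of Wnt and beta-catenin signalling. Its single probe set gave 89.1 in the Sox11-null library, against 207 in the wild-type library. The null signal was 43.6% of the wild-type signal, a log2 difference of -1.20 or 2.30-fold lower. Counting Sp5 itself, 78 of the 12390 measured genes were as low or lower by this difference. No second probe set was there to compare, and with values below the array median raised to that median the difference was -0.21.

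Promoters of the Wnt genes beyond 1.5-fold by their brightest probe set were searched for letters bound by Tcf and Lef factors. Those of Sp5 and Wnt7a, the lower genes, are shown. The higher genes, Fzd8 and Lgr5, had no promoter in the table used and could not be searched. The search covered the 250 bases before the gene start in the RefSeq table of the GRCm38.p6 build, on both strands, for CTTTGA and CTTTGT. The reverse complement of the second, ACAAAG, is also the core that Sox factors bind, so matches to it cannot be assigned to either family. Matches to CTTTGA were not assigned to a family either. Capitals mark the matches, and both sequences run 5' to 3' on the strand of the gene. The Sp5 promoter is at chr2:70474673-70474922 on the plus strand and the Wnt7a promoter at chr6:91411354-91411603 on the minus strand.
Sp5: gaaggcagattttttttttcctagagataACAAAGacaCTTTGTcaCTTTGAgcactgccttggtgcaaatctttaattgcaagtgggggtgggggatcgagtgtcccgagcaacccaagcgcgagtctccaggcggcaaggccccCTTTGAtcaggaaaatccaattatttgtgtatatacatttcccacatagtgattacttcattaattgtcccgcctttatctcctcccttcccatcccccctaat
Wnt7a: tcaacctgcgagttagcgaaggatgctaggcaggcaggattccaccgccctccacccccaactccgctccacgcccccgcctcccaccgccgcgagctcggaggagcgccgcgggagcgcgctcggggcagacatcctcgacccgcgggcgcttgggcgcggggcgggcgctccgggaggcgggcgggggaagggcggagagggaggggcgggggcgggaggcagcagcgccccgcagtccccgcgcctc

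The Sp5 window held 4 matches that did not overlap. CTTTGT was matched once on each strand, beginning 221 and 212 bases before the start, and CTTTGA at 204 and at 104 bases before it on the gene's strand. The Wnt7a window held no match, and its G and C content was 77.6%, against 46% for Sp5 and a median of 52.4% over all promoters of the table. Over all 32851 promoters of that table, 13.8% held CTTTGA, 16.5% held CTTTGT and 27.6% held either. At least as many matches as in Sp5 were found in 31 of them (0.0944%). That cut was set by the count of Sp5 itself, so this share says nothing about the Sp5 difference. Of the 49 Wnt genes, 33 had promoters in the table, 41 in all, and 11 of those 41 held a match, against 27.6% of all promoters. These are matches of letters in a short window and not binding sites.

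Of the 19 ligand genes, 8 were measured, and 7 of these were within 1.5-fold. Wnt7a and Wnt7b encode closely related ligands that progenitors and neurons of the forebrain make and that drive the growth of brain vessels. The brightest Wnt7a probe set gave 187 in the Sox11-null and 382 in the wild-type library, a log2 difference of -1.01 or 2.01-fold lower. The other measured Wnt7a probe set gave 180 in the Sox11-null and 158 in the wild-type library, a log2 difference of 0.21. The probe sets of Wnt7a thus stood on opposite sides of 0, 1.22 apart on the log2 scale. Wnt7b showed an even wider gap, of 2.02. Its brightest probe set gave 730 in the Sox11-null and 810 in the wild-type library (log2 difference -0.13), and its other probe set gave 258 in the Sox11-null and 70.7 in the wild-type library (1.89). A direction cannot be given for either gene from these arrays.

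Wnt5a, a ligand best known for acting on cell polarity without beta-catenin, was at 753 in the Sox11-null and 745 in the wild-type library by its brightest probe set (log2 difference 0.04). A second Wnt5a probe set gave 360 in the Sox11-null and 205 in the wild-type library (0.83), and another gave 0.17. Wnt4, which acts in kidney and gonad development among other places, was at 697 in the Sox11-null and 693 in the wild-type library (0.03), and its second probe set gave -0.04. These were the ligand readings with the smallest differences on several probe sets. Wnt11 (0.05), Wnt6 (0.08), Wnt9a (-0.06) and Wnt10a (-0.31), a ligand of skin and tooth, were each read by 1 measured probe set. Wnt10a had 195 in the Sox11-null and 246 in the wild-type library.

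The other 11 ligand genes, Wnt1, Wnt2, Wnt2b, Wnt3, Wnt3a, Wnt5b, Wnt8a, Wnt8b, Wnt9b, Wnt10b and Wnt16, were below the median on both arrays. They include Wnt3a, Wnt2b and Wnt8b, which mark the cortical hem at earlier stages. Wnt8b gave 56.4 in the Sox11-null and 62.2 in the wild-type library, and Wnt2b gave 93.1 in the Sox11-null and 77.2 in the wild-type library. Wnt3a lay under the floor of the comparison (52.5 in Sox11 null, 52.9 in wild type) in both libraries, with 19.0 in Sox11 null and 47.6 in wild type, so no fold is given. No detection call was used, and a signal below the median does not show that a gene is silent.

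Among receptors and co-receptors, 12 of 13 genes were measured, 10 were within 1.5-fold and 10 lay above 0, with a median log2 difference of 0.16. Fzd8, a Frizzled receptor of neural progenitors, gave 261 in the Sox11-null and 166 in the wild-type library by its brightest probe set (log2 difference 0.67, 1.59-fold higher). Its other probe set gave 192 in the Sox11-null and 211 in the wild-type library (-0.12). Lgr5, a receptor for the R-spondins that amplify Wnt signals and itself a Wnt target in the gut and hair follicle, gave 300.5 in the Sox11-null and 194 in the wild-type library (0.65, 1.57-fold higher). Its second probe set was below the median, with 54.2 in the Sox11-null and 29.97 in the wild-type library. Across the array, 256 measured genes were as high as Fzd8 or higher by this difference, and 272 were as high as Lgr5 or higher.

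The remaining Frizzled genes differed less by their brightest probe sets. Fzd3, which guides axons and planar polarity, was at 2019 in the Sox11-null and 1836 in the wild-type library (log2 difference 0.16). Its other measured probe sets gave 0.06 and -0.68. Fzd1 was at 1741 in the Sox11-null and 1565 in the wild-type library (0.17), with 0.93 by its other probe set. Fzd4, the receptor for norrin and Wnt signals in endothelial cells, was at 646 in the Sox11-null and 583 in the wild-type library (0.17), with -0.64 by its other measured probe set. The 3 probe sets of Fzd2 lay closest together, from -0.10 to 0.12. Fzd6 (0.20), Fzd7 (0.16), Fzd9 (0.10) and Fzd10 (0.13) were above 0, and Fzd5 was below it (-0.42, with 285 in the Sox11-null and 385 in the wild-type library). The second Fzd5 probe set was below the median on both arrays, at 83.5 in the Sox11-null and 145 in the wild-type library (-0.78). The co-receptor Lrp6 was at 1378 in the Sox11-null and 1280 in the wild-type library (0.13), and Lrp5 was below the median on both arrays at 78.2 in Sox11 null and 71.5 in wild type.

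Endothelial markers mostly lay above 0, as did most receptor genes. The same held for 6 of 8 meningeal and fibroblast genes, with a median log2 difference of 0.20 and 1 gene 1.5-fold higher. Of 6 endothelial genes, 3 were 1.5-fold higher in the Sox11-null library, against 3.07% of all measured genes. The summed signal of these 6 genes was 4261 in the Sox11-null and 3606 in the wild-type library. Cldn5, a junction gene of the blood-brain barrier, was the only one below 0, at 1274 in the Sox11-null and 1547 in the wild-type library. The part of vessel, meningeal or fibroblast cells in the receptor differences was not tested.

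All 8 secreted inhibitor genes were measured and all were within 1.5-fold by their brightest probe set. The highest was Sfrp4 at 638 in the Sox11-null and 439 in the wild-type library, a log2 difference of 0.56 that is just short of 1.5-fold. The Sfrp proteins carry a Frizzled-like domain that binds Wnt ligands outside the cell. Sfrp2 was at 3909 in the Sox11-null and 3058 in the wild-type library (0.37), and Sfrp5 was at 193 in the Sox11-null and 236 in the wild-type library (-0.26). Sfrp1, which is made by cortical progenitors, had 5 measured probe sets with differences of -0.12, 0.15, 0.36, -0.32 and 0.94. The brightest of them gave 1148 in the Sox11-null and 1262 in the wild-type library, and the dimmest gave 514 in the Sox11-null and 273 in the wild-type library.

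The Dkk proteins bind Lrp5 and Lrp6, apart from Dkk3, whose role in Wnt signalling is less settled. Dkk2 was at 547 in the Sox11-null and 430 in the wild-type library (log2 difference 0.37), and Dkk1 was at 284 in the Sox11-null and 268 in the wild-type library (0.10). Dkk3 was at 1006 in the Sox11-null and 1229 in the wild-type library with 1 probe set (-0.27) and at 864 in the Sox11-null and 486 in the wild-type library with the other (0.85). Wif1, which binds Wnt ligands directly, was at 1397 in the Sox11-null and 1313 in the wild-type library (0.11).

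The 4 transducer genes of the cytoplasm were all within 1.5-fold by their brightest probe set. Ctnnb1, which encodes beta-catenin, was at 14331 in the Sox11-null and 15569 in the wild-type library (log2 difference -0.10). Its other probe sets gave 7773 in the Sox11-null against 5588 in the wild-type library (0.50), and 2009 in the Sox11-null against 1066 in the wild-type library (0.93). The difference of Ctnnb1 was thus more positive on each dimmer probe set. Apc, the scaffold of the destruction complex, was at 3549 in the Sox11-null and 3772 in the wild-type library (-0.07), with -0.17 and 0.28 by its other measured probe sets. Axin1, the other scaffold, was at 628 in the Sox11-null and 515 in the wild-type library (0.31), and at 258 in the Sox11-null and 168 in the wild-type library with its second probe set (0.64). Nkd1, an inhibitor that binds Dishevelled and is induced by Wnt signals, was at 194 in the Sox11-null and 275 in the wild-type library (-0.49), but at 197 in the Sox11-null and 129 in the wild-type library with its other measured probe set (0.63).

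The 3 nuclear factor genes lay below 0 by their brightest probe sets, and none reached 1.5-fold. Tcf7l1, which mostly represses targets, was at 981 in the Sox11-null and 1153 in the wild-type library (log2 difference -0.21), and its second probe set also lay below 0 (-0.37). Tcf7l2 was at 2829 in the Sox11-null and 3237 in the wild-type library (-0.17), but its other measured probe sets gave 0.65 and 0.61. Lef1, a factor that is itself a Wnt target, was at 295 in the Sox11-null and 309 in the wild-type library (-0.05). Its second probe set was below the median, at 111 in the Sox11-null and 46.3 in the wild-type library.

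Axin2 is the feedback inhibitor most used as a readout of beta-catenin signalling. It was at 551 in the Sox11-null and 608 in the wild-type library, a log2 difference of -0.12. Its second probe set was far below the median, at 63.0 in the Sox11-null and 6.89 in the wild-type library. Axin2 and Sp5 (-1.20), the genes kept here in the target class, were both below 0 by their brightest probe sets, with only Sp5 beyond 1.5-fold. Of the genes in other classes that are also known as Wnt targets, Nkd1 was at -0.49, Lef1 at -0.05 and Lgr5 at 0.65.

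Different probe sets of the same Wnt gene often gave different answers. Of 18 Wnt genes with several measured probe sets, 12 had probe sets that differed from each other by more than 1.5-fold or lay more than 0.25 on each side of 0 on the log2 scale. That is 66.7% of the 18, against 33.6% of 5155 such genes on the whole array. None of the 18 genes had all its measured probe sets beyond 1.5-fold in 1 direction, against a share of 0.815% of all such genes. The SD between probe sets of 1 gene, pooled over the 18 Wnt genes, was 0.54 on the log2 scale, and over all 5155 genes it was 0.38. Of the 4 Wnt genes beyond 1.5-fold, Wnt7a and Fzd8 had a second measured probe set, and in both it lay on the other side of 0.

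**Figure D3:**
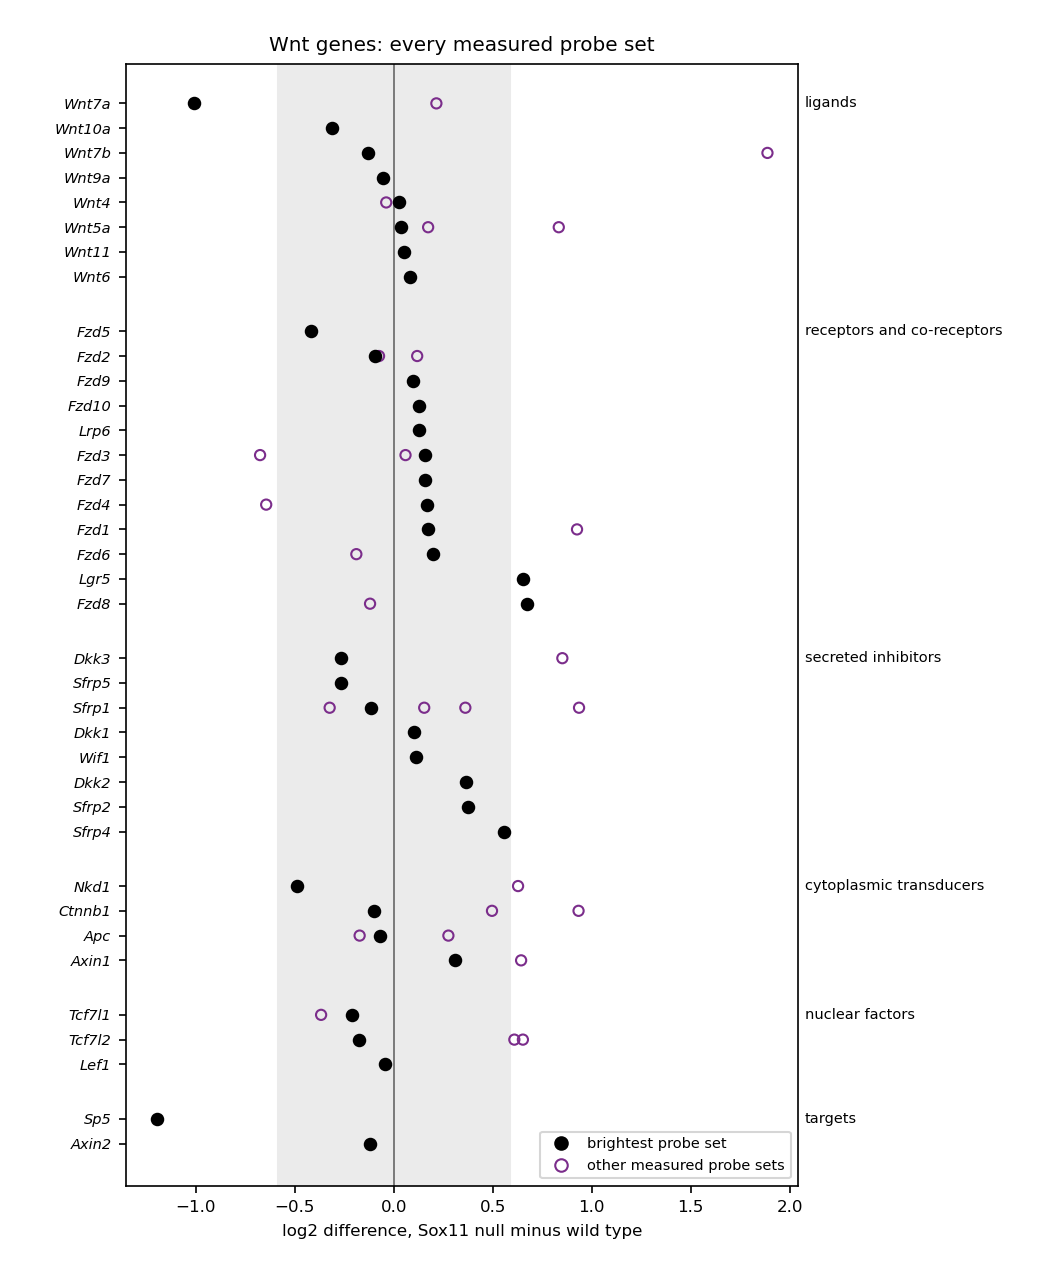
Log2 difference (Sox11 null minus wild type) of each of the 64 measured Wnt probe sets, 1 row per gene by role, with filled circles for the brightest probe set of a gene and open circles for its others. Inside the grey band a difference is below 1.5-fold, and more open circles lie right of the band (10) than left of it (2).

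The probe sets other than the brightest leaned to higher values in the Sox11-null library. Of 27 such Wnt probe sets, 10 (37.0%) were 1.5-fold higher in the Sox11-null library and 2 (7.41%) were lower. The same lean was present on the whole array, where 13.5% of 8272 such probe sets were 1.5-fold higher and 3.80% lower. The 10 higher Wnt probe sets were those of Axin1, Ctnnb1, Dkk3, Fzd1, Nkd1, Sfrp1, Tcf7l2 (both others), Wnt5a and Wnt7b, and the lower ones those of Fzd3 and Fzd4. Counted over all 64 measured Wnt probe sets, 12 were higher (18.8%) and 4 lower (6.25%), against 7.26% and 3.48% of all measured probe sets. The 3' to 5' ratio of beta-actin was lower in the Sox11-null library, at 1.16 against 1.78 in wild type, and that of Gapdh was 0.816 in Sox11 null and 0.922 in wild type. The part of RNA integrity in the probe set differences was not tested.

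Genes of the pathway outside the 49 were counted in a wider list of 84 genes, of which 81 had a probe set and 69 were measured. Only Ptk7 and Ctnnbip1 passed 1.5-fold, each in 1 direction, against 3.24% of all measured genes lower and 3.07% higher. The median log2 difference of the 69 genes was -0.01. Ptk7, a receptor-like protein of planar polarity, was at 552 in the Sox11-null and 341 in the wild-type library (0.72, 1.64-fold higher). Ctnnbip1, which keeps beta-catenin from binding Tcf factors, was at 944 in the Sox11-null and 1477 in the wild-type library (-0.63, 1.54-fold lower), but its other measured probe set gave 0.17.

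**Figure D4:**
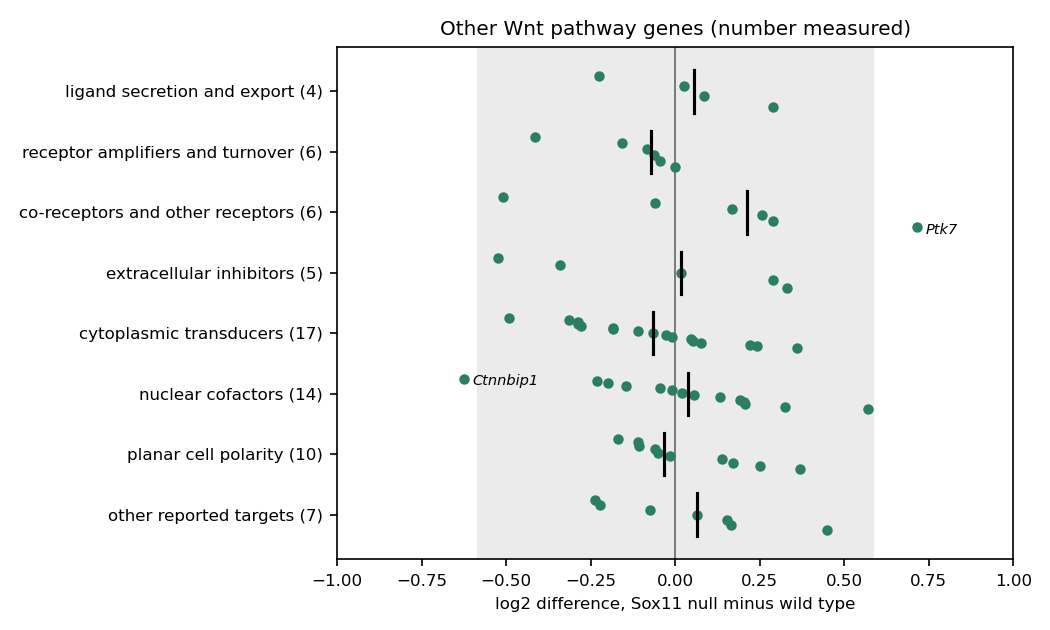
Log2 difference (Sox11 null minus wild type) of the 69 measured genes of the wider Wnt pathway list by function, 1 point per gene by its brightest probe set, with a black bar at each group's median and a grey band for differences below 1.5-fold. Only Ptk7 (0.72) and Ctnnbip1 (-0.63) lie outside the band.

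By their brightest probe sets, most other genes of the wider list were within 1.5-fold. Porcn and Wls, which attach the lipid to Wnt ligands and carry them to the cell surface, differed by 0.29 and 0.08 on the log2 scale. The R-spondin genes Rspo1, Rspo2 and Rspo3, which encode amplifiers of the signal, differed by -0.06, -0.08 and 0.00045. Their receptor gene Lgr4 was at 1603 in the Sox11-null and 2165 in the wild-type library (-0.41). Reck and Adgra2, which make endothelial cells responsive to Wnt7a and Wnt7b, differed by 0.17 and 0.26. All 17 measured genes of cytoplasmic transduction were within 1.5-fold by their brightest probe set, with Gsk3b, the kinase that marks beta-catenin, at 4384 in the Sox11-null and 5430 in the wild-type library (-0.29). Some dimmer probe sets of these genes went further, with differences up to 1.31 for Csnk1d and 0.99 for Apc2, and down to -0.75 for Gsk3b. Over the wider list, 8 of 63 measured probe sets other than the brightest were 1.5-fold higher and 3 were lower. On the whole array 13.5% of such probe sets were 1.5-fold higher and 3.80% lower. The 10 planar polarity genes were also within 1.5-fold by it, with Vangl2 at -0.05 and Celsr3 at -0.02. Of the 7 measured genes reported elsewhere as Wnt targets, none passed 1.5-fold by its brightest probe set, although another probe set of Id2 was at -1.12. The cell cycle gene Ccnd1 was at 3684 in the Sox11-null and 4407 in the wild-type library (-0.24), and Myc was at 668 in the Sox11-null and 604 in the wild-type library (0.17).

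Of 7 markers of the hem and of Cajal-Retzius cells, the early neurons that arise partly from it, 5 were measured and 1 passed 1.5-fold. That was Trp73, at 151 in the Sox11-null and 251 in the wild-type library (log2 difference -0.72). Trp73 reached the median signal on the wild-type array alone, so it had to differ to some degree in order to be counted. Reln was at 2858 in the Sox11-null and 3955 in the wild-type library (-0.45), and it made up most of the gap in the list's summed signal, 4186 in Sox11 null and 5402 in wild type. Lhx1 was at 0.17, Rspo2 at -0.08 and Rspo3 at 0.00045 on the log2 scale, and Lhx5 and Lmx1a were below the median on both arrays. Of 10 epidermal genes 6 were 1.5-fold lower, as were 6 of 7 measured hair follicle and tooth genes and all 5 lens genes. The share of all measured genes 1.5-fold lower was 3.24%. Among the lower epidermal, hair follicle and tooth genes, Ivl, Dspp and Krt27 reached the median signal on the wild-type array alone. They too had to differ to some degree in order to be counted. The epidermal genes Krt5 (0.11) and Krt15 (0.19) lay above 0. Of 8 radial glia genes, markers of cortical progenitors, 1 was 1.5-fold lower, and their median log2 difference was 0.04. None of 5 measured choroid plexus genes was 1.5-fold lower. The part of any of these cells in the Sp5 difference, or in that of the brightest Wnt7a probe set, was not tested.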

How the data were processed

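Signal intensities of 45101 probe sets on 2 Affymetrix arrays were used as deposited, on a linear scale. Affymetrix Expression Console made them, per the submitters' processing notes. How the signals were summarised, and whether any were filtered out, is not stated in those notes. Both arrays had a mean of 500.002 after trimming 2% at each end. The 64 control probe sets were left out. Probe sets naming 1 gene (34945) were used, with symbols updated through RefSeq. Each of the 18193 genes was read by its brightest probe set, judged on the average of both log2 signals.

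After conversion to log2, 0.020 was added to the Sox11-null array so that the median difference of the 12390 measured genes was 0. Values below 1 common floor were then raised to it on both arrays. The floor was the higher of the arrays' 25th percentiles after centring (before centring, 52.5 in Sox11 null and 52.9 in wild type). Genes were counted at 1.5-fold and 2-fold, without a test. The number of arrays limits the precision. The procedure was tested on simulated data. Sequences came from RefSeq (GRCm38.p6). Python 3.11.15, numpy 2.4.6, pandas 2.3.3 and statsmodels 0.14.6 were used. Any Wnt gene could be named, with signals on both arrays for those beyond 1.5-fold, the 3 brightest of each role and those with differing probe sets. Signals of other Wnt, pathway and marker genes were printed after their values were seen. The members and lists were chosen with earlier results of these data known. Alternatives were other centring, floors, filters and probe set choices.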

Additional observations from a re-analysis of the deposited data

How the results depend on the processing

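With 1 array per genotype, no alternative gives a p-value. The lower Wnt genes, Sp5 and Wnt7a (2), became 1 with the floor at the array median (Wnt7a), 0 with the filter at the 75th percentile and 1 with the mean over measured probe sets (Sp5). With the mean over all probe sets they were again 2, but these were Sp5 and Fzd5 (-0.60). The higher genes, Fzd8 and Lgr5 (2), became 1 with the floor at the median (Lgr5), 0 with the 75th percentile filter, 3 with no filter (Wnt5b added) and 1 with the mean over all probe sets, which was Wnt7b (0.88). With the mean over measured probe sets they were Lgr5 and Wnt7b. The 75th percentile filter kept 21 Wnt genes, and Sp5, Wnt7a, Fzd8 and Lgr5 were not among them. Their absence gives the counts of 0 there. The share of all measured genes beyond 1.5-fold moved too. It ran from 1.84% lower and 1.77% higher with that filter to 4.38% lower and 3.97% higher with no filter. In the wider list, the 1 lower gene became 2 with quantile normalization and 0 with either mean over probe sets, and the 1 higher became 2 with no filter or without the _s_at and _x_at types and 0 with the 75th percentile filter. The median of the measured Wnt genes ran from 0 to 0.10 over all settings. That of all measured genes moved as well, from -0.03 with quantile normalization to 0.03 with the mean over all probe sets. In these settings the Wnt median was 0 and 0.07.

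Of the 4 genes, Wnt7a was at -0.40 with the mean over measured and -0.26 over all probe sets, Fzd8 at 0.28 with both means, Lgr5 at 0.35 with the mean over all, and Sp5 at -0.21 with the floor at the median. Several genes within 1.5-fold lay on the other side of 0 when their measured probe sets were averaged. Ctnnb1 was then at 0.44, Dkk3 at 0.29, Tcf7l2 at 0.36, Sfrp1 at 0.20, Fzd3 at -0.15, Fzd4 at -0.24 and Nkd1 at 0.07, and over all probe sets Lef1 was at 0.51 and Axin2 at 0.07. No direction is settled for these genes. No paired analysis was possible because each genotype has 1 sample and the labels give no replicate numbers. Signals near the floor limit what can be said of the dim ligands.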

Other observations

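Fzd10os, a transcript annotated opposite to the receptor gene Fzd10, lies outside the Wnt symbols and was read by 2 probe sets. The brighter one gave 217 in the Sox11-null and 285 in the wild-type library (log2 difference -0.37). The other was below the median on both arrays, at 174 in the Sox11-null and 89.9 in the wild-type library. Fzd10 itself was at 396 in the Sox11-null and 368 in the wild-type library (0.13).

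After Sp5, the promoters with most matches to CTTTGA or CTTTGT among the Wnt genes were those of Dkk1 and 1 of the 4 promoters listed for Lef1, with 3 matches each. Both genes were near 0 on the arrays, at 0.10 and -0.05. The promoter of Axin2 held no match in the 250 bases before its start.

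Among ligand genes below the median on both arrays, Wnt5b had the largest difference above the floor, with 93.8 in the Sox11-null and 58.2 in the wild-type library by its brighter probe set (0.71). Its other probe set gave 95.2 in the Sox11-null and 30.2 in the wild-type library.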
